A study of Mus musculus with 6 samples.

Results

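10 genes around the FoxO transcription factors are described here: the factors Foxo1 and Foxo3, the insulin signalling genes Insr and Irs2, and Pik3ip1, Sesn1, Txnip, Trp53inp1, Fbxo32 and Mxd4, which respond to FoxO factors in various tissues. Every non-control probe whose transcript accession maps to one of these 10 genes was taken, which gave 16 of the 56593 probes analysed, or 10 of the 22907 named genes on the array. 6 of the genes had 2 probes and 4 had 1. These genes were chosen by their role in the pathway, with their knockdown against control log2 fold changes on these same arrays already known. Their differences are therefore given as a description, with no test of a single gene, and support nothing beyond themselves.

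The knockdown group was 3 samples of a mouse glioblastoma stem cell line carrying a lentiviral hairpin against Ggct, the gene of gamma-glutamylcyclotransferase, an enzyme of glutathione turnover. The control group was 3 samples of that line carrying a lentiviral non-target hairpin. All 6 were kept in a serum-free neurosphere culture with EGF, bFGF and the supplements B27 and N2, which supply insulin. The line was derived from glioblastomas induced in mice by a transposon, all sample titles carry the same line name, and the knockdown titles name 1 hairpin, so effects of this hairpin apart from loss of Ggct cannot be told apart. One-colour Agilent arrays gave 1 intensity per spot, and each value below is a normalised log2 signal, the log2 intensity minus the 75th percentile of its array.

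In insulin and growth factor signalling, a receptor such as the insulin receptor recruits adaptor proteins of the IRS family, these activate phosphoinositide 3-kinase (PI3K), and the lipid it makes activates the kinase Akt. Akt phosphorylates FoxO factors, which then leave the nucleus, so FoxO activity is set largely by the location of the protein and much less by its mRNA. Nuclear FoxO switches on genes of arrest, catabolism and stress defence, and some of its targets act back as brakes on PI3K or mTORC1. The arrays measured mRNA only, and in bulk RNA fewer cells that express a gene and less mRNA per cell cannot be told apart.

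The targeted gene was lower in all 3 knockdown arrays. Ggct had 0.22, 0.91 and 0.70 in knockdown arrays and 3.32, 3.72 and 3.70 in control arrays, which is 12.7% of control (log2 fold change -2.97 ± 0.21, SE, n = 3 each; limma adjusted p = 0.0147). Of 8 neural and glioma stem cell markers, 6, among them Nes, Sox2 and Vim, were above background on all 6 arrays, and Olig2 was on none. Of 6 microglia and macrophage genes, Cx3cr1, P2ry12, Aif1 and Ptprc were above background on no array, and Tmem119 and Csf1r on all 6. Arrays had 54.5% to 56.8% of probes well above background and 0 saturated probes. Knockdown replicate 1 lay apart from the rest, with a first principal component score of -80.9, where knockdown replicates 2 and 3 scored -3.2 and -6.9. Control replicates 1, 2 and 3 scored 43.1, 45.5 and 2.4, so control replicate 3 lay nearer to knockdown replicates 2 and 3. On the second component control replicate 3 scored 49.4, and the other arrays scored from -38 to 12.9.

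By the brightest probe of each gene, the genes grouped here as responsive were higher in the knockdown. The factors and the insulin signalling genes overlapped between the groups, among them Irs2, which is itself known as FoxO-activated in mouse liver. Pik3ip1, Trp53inp1, Fbxo32, Mxd4, Txnip and Sesn1 were 2.30-fold to 4.09-fold higher in knockdown cells, with no overlap between the groups. Foxo1, Foxo3, Irs2 and Insr had folds of 0.721 to 1.0. The dimmer Foxo3 probe, near background and not tested, was higher in the knockdown without overlap. Of the 15 member probes tested, 7 passed an adjusted p of 0.05 in limma over all 31804 tested probes, all of them higher in the knockdown, where 1.75% of all tested probes passed in either direction and 1.16% passed as higher. The groups did not overlap in 8 of these 15 probes, all higher in the knockdown, against 14.5% of all tested probes that were higher without overlap. Because the choice of genes used this contrast, nothing is read from either count.

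These counts changed with the fit. A block was then set for each pair of arrays whose sample titles share a date. The titles do not say what that date marks. With this block limma called 0 of the 31804 probes, 0 of them member probes (8 member probes had an unadjusted p below 0.05, as they did without the block). With 1 probe for each of 14151 named genes in the fit, 6 of the 10 genes passed, where 7.41% of genes passed. With that fit and the block, 5 passed, where 3.94% passed. These counts rest on the contrast that the choice used, and nothing is read from them either. The count of member probes was 4 without knockdown replicate 1, 3 without knockdown replicate 2, and 0 without knockdown replicate 3 or any 1 of the 3 controls, with 8 to 10 at an unadjusted limma p below 0.05. Over all 6 such omissions the log2 fold changes of the 6 responsive genes stayed between 0.99 and 2.33.

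**Figure D1:**
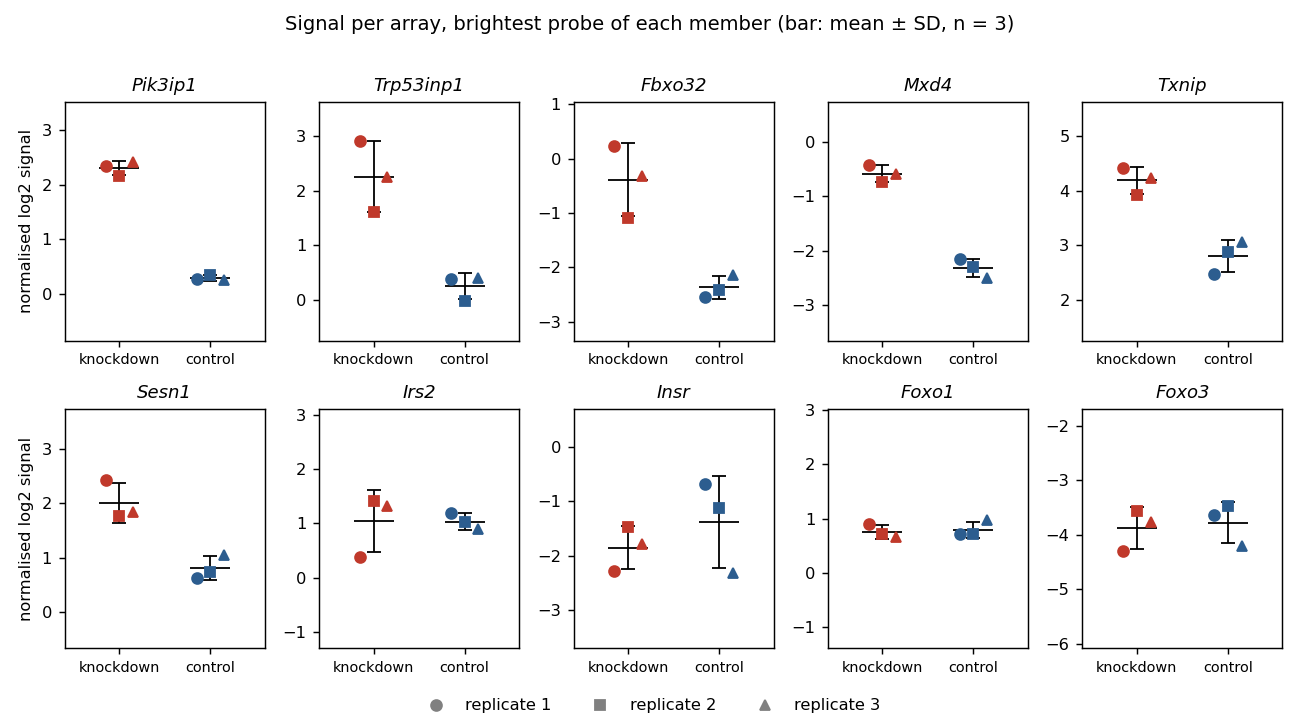
Normalised log2 signal (vertical axes, all spanning the same range of log2 units) of the brightest probe of each of the 10 genes on each array, knockdown left of control. Points are single arrays with a shape per replicate, and bars are the mean ± SD of 3. Pik3ip1, Trp53inp1, Fbxo32, Mxd4, Txnip and Sesn1 lie higher in all knockdown arrays than in any control array, and the other genes overlap.

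Insr encodes the insulin receptor, and its level was uneven among the arrays. Its brighter probe had -2.28, -1.48 and -1.79 in knockdown arrays and -0.69, -1.12 and -2.32 in control arrays. Control replicate 3 was the lowest of all 6 arrays, so the groups overlapped, and the log2 fold change was -0.47 ± 0.42 (SE, n = 3 each). The second Insr probe, with -5.07, -4.39 and -5.14 in knockdown arrays and -3.59, -3.96 and -5.44 in control arrays, followed the same order in the controls at a dim signal, well above background on 5 of 6 arrays. Its log2 fold change was -0.54 ± 0.48 (SE). The 95% interval of the brighter probe, from -1.47 to 0.53, allows anything between 0.360-fold and 1.44-fold.

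Irs2 encodes an adaptor that links the insulin and IGF1 receptors to PI3K, and is itself known as a FoxO-activated gene in mouse liver. Its probe had 0.38, 1.42 and 1.31 in knockdown arrays and 1.19, 1.02 and 0.89 in control arrays. Knockdown replicate 1 was the lowest of the 6 arrays and the other knockdown arrays were the highest. The means of Irs2 were 1.03 ± 0.57 in knockdown and 1.03 ± 0.15 in control arrays (SD, n = 3 each), a fold of 1.0 with a 95% interval from 0.631 to 1.59. Without knockdown replicate 1 the fold was 1.26.

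Foxo1 and Foxo3 encode the forkhead factors themselves. The brighter Foxo1 probe had 0.90, 0.71 and 0.66 in knockdown arrays and 0.72, 0.71 and 0.97 in control arrays. The 6 values interleaved, with a log2 fold change of -0.05 ± 0.14 (SE, n = 3 each) and a 95% interval of 0.770-fold to 1.22-fold. The second Foxo1 probe gave 0.40, 0.75 and 0.66 in knockdown arrays and 0.69, 0.75 and 0.58 in control arrays, a log2 fold change of -0.07 ± 0.14 (SE). Over both Foxo1 probes the intervals reached from 0.753-fold to 1.22-fold, narrower than for Foxo3.

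The brighter Foxo3 probe was weak, with -4.30, -3.56 and -3.76 in knockdown arrays and -3.64, -3.48 and -4.21 in control arrays. Knockdown replicate 1 and control replicate 3 were the low arrays of their groups, as they were for the brighter Insr probe. The log2 fold change was -0.09 ± 0.26 (SE, n = 3 each), with a 95% interval from 0.609-fold to 1.44-fold. The second Foxo3 probe was well above background on 2 knockdown arrays and on 0 control arrays and was not tested. It had -5.18, -4.92 and -5.30 in knockdown arrays and -5.49, -5.69 and -5.86 in control arrays. Its mean was 1.14-fold higher in the knockdown when control values were raised to the lowest signal well above background on their array. That floor sets no limit on what the controls held, so the fold is not a bound. The brighter probe showed no clear direction, the dimmer one was not tested, and neither gave a firm level.

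Pik3ip1 encodes a membrane protein that binds the catalytic subunit of PI3K and inhibits it. Its brighter probe had 2.35, 2.17 and 2.42 in knockdown arrays and 0.26, 0.34 and 0.24 in control arrays. The lowest knockdown array stood 1.83 log2 units above the highest control array. The fold was 4.09 (log2 fold change 2.03 ± 0.13, SE, n = 3 each), and the 3 pairs differed by 2.08, 1.83 and 2.18. The second Pik3ip1 probe, designed to a predicted transcript variant, behaved otherwise. It had -4.51, -4.07 and -3.97 in knockdown arrays and -3.58, -4.17 and -5.28 in control arrays, close to background, and the groups overlapped (log2 fold change 0.16 ± 0.41, SE).

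Sesn1 encodes sestrin 1, a stress protein that restrains mTORC1 and is induced by p53 as well as by FoxO. Sesn1 had 2.43, 1.76 and 1.83 in knockdown arrays and 0.63, 0.73 and 1.05 in control arrays. All knockdown arrays were above all control arrays, by at least 0.71 log2 units, and knockdown replicate 1 was the highest. The fold was 2.30 (log2 fold change 1.20 ± 0.22, SE, n = 3 each), and it was 1.99-fold without knockdown replicate 1.

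Txnip encodes a protein that binds thioredoxin and curbs glucose uptake, and it is a target of the glucose-sensing factor MondoA in addition to FoxO. Its brighter probe had 4.41, 3.92 and 4.24 in knockdown arrays and 2.47, 2.87 and 3.06 in control arrays. The second Txnip probe had -0.51, -0.93 and -0.77 in knockdown arrays and -2.57, -2.26 and -2.08 in control arrays. Both probes separated the groups and their folds were 2.62 and 2.96 (log2 fold changes 1.39 ± 0.21 and 1.56 ± 0.18, SE, n = 3 each). In both, control replicate 1 was the lowest array and knockdown replicate 1 the highest, so pair 1 showed the widest difference, 1.95 and 2.05 against 1.05 to 1.33 in the other pairs.

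Trp53inp1 encodes a stress-induced protein that promotes p53 activity and autophagy. Its brighter probe had 2.91, 1.61 and 2.25 in knockdown arrays and 0.37, -0.03 and 0.39 in control arrays. The groups were 1.22 log2 units apart and the fold was 4.03 (log2 fold change 2.01 ± 0.32, SE, n = 3 each), or 3.21 without knockdown replicate 1. The second Trp53inp1 probe had -2.53, -2.69 and -2.19 in knockdown arrays and -3.31, -3.44 and -3.67 in control arrays, also without overlap, at a fold of 2.01. The 2 probes thus gave the same direction and different sizes, and with the normexp background correction the log2 fold change of the dimmer one was 0.49 in place of 1.0.

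Fbxo32 encodes atrogin-1, a ubiquitin ligase subunit known as a FoxO target in muscle atrophy. It had 0.24, -1.09 and -0.31 in knockdown arrays and -2.54, -2.42 and -2.14 in control arrays. The 3 knockdown arrays were spread, with an SD of 0.67, and lay at least 1.05 log2 units above the controls. The fold was 3.94 (log2 fold change 1.98 ± 0.33, SE, n = 3 each), or 3.17 without knockdown replicate 1. Mxd4, which encodes a MAX partner that opposes MYC at its target genes, was tighter. Mxd4 had -0.42, -0.74 and -0.60 in knockdown arrays and -2.16, -2.30 and -2.50 in control arrays, a fold of 3.33 (log2 fold change 1.74 ± 0.15, SE, n = 3 each).

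**Figure D2:**
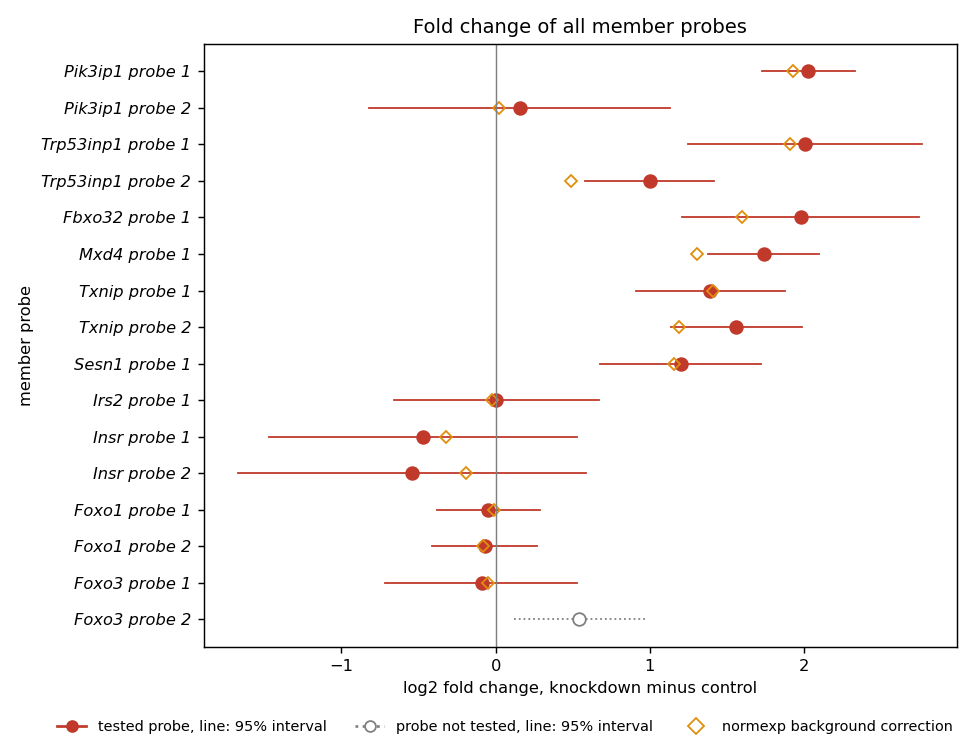
Log2 fold change, knockdown minus control (horizontal axis), of all 16 member probes, listed by gene with the brighter probe as probe 1. Filled circles with lines are the estimates and 95% intervals of tested probes, the open circle is the untested second Foxo3 probe, and open diamonds are values with the normexp background correction. 8 probes of the 6 responsive genes lie at 1.0 to 2.03, and the second Pik3ip1 probe lies at 0.16 beside the probes of Foxo1, Foxo3, Irs2 and Insr.

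The signals of the responsive genes ranked the knockdown arrays in a partly shared order. Among the brightest probes of the 6 responsive genes, knockdown replicate 1 was the highest knockdown array in 5, with Pik3ip1 as the exception, and knockdown replicate 2 was the lowest in all 6. Their pair differences ran from 0.78 to 2.78 and all were above 0. The pairs shared an order in part. Pair 2 was the narrowest for all of these genes except Sesn1, where pair 3 was. Pair 1 was the widest for all except Pik3ip1 and Mxd4, where pair 3 was. Foxo1 differed by 0.17, 0.00 and -0.31 in pairs 1, 2 and 3. Irs2 differed by -0.81, 0.40 and 0.42, Insr by -1.59, -0.36 and 0.53 and Foxo3 by -0.66, -0.08 and 0.46, so for these 3 genes pair 1 was the lowest and pair 3 the highest. Knockdown replicate 1 also lay apart on the first principal component over all tested probes. The share of all probes with it as the highest knockdown array was not counted. The 75th percentile intensity was 1201, 821 and 917 in knockdown arrays and 815, 812 and 1373 in control arrays, so knockdown replicate 1 and control replicate 3 were the brightest. Control replicate 3 was also the lowest control array for Irs2 and for the brighter Insr and Foxo3 probes. The part of either array's brightness in these differences was not tested.

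**Figure D3:**
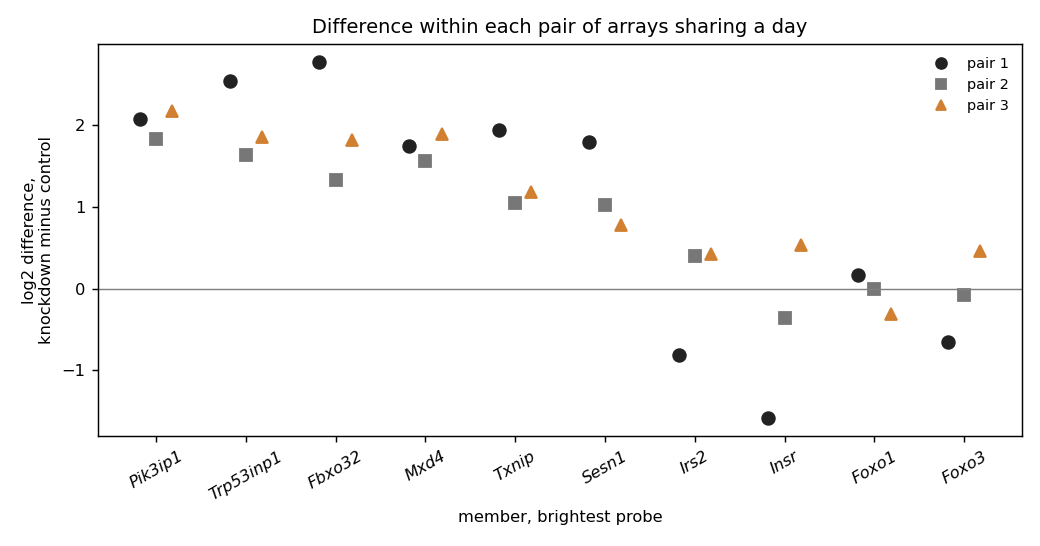
Log2 difference between the knockdown and the control array of each pair whose titles share a date (vertical axis), for the brightest probe of each of the 10 genes. Each point is 1 pair. All 3 pairs lie between 0.78 and 2.78 for the 6 responsive genes, while Irs2, Insr, Foxo1 and Foxo3 have pairs on both sides of 0 or at it.

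Promoters are shown for Txnip and Sesn1 because these 2 of the members hold the forkhead core motif near the gene start. The RefSeq promoter table of GRCm38.p6, which gives 250 bases before to 50 after each start, held 8 promoters of 7 of the 10 genes. 4 motifs were searched on both strands: GTAAACA, the core bound by FoxO factors, CAAAACA, a variant in insulin response elements, the E-box CACGTG, and a pair of CACGAG sites parted by any 5 bases, an arrangement of the kind MondoA binds. No motif overlapped another. In the lines below, capitals mark the matches, and both promoters are on the plus strand, at chr3:96557707-96558006 for Txnip and chr10:41810324-41810623 for the first of 2 Sesn1 starts.
Txnip promoter: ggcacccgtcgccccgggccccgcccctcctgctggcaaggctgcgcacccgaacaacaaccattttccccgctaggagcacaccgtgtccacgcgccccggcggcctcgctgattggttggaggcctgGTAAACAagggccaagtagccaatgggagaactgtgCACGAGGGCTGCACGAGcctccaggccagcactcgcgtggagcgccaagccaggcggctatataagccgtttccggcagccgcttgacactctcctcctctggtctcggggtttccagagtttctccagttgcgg
Sesn1 promoter: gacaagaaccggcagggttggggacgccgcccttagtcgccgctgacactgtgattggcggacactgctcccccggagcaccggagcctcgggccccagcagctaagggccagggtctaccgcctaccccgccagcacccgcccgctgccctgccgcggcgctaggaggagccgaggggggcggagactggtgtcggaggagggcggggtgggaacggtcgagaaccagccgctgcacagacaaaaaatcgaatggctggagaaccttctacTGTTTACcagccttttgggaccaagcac
In the Txnip promoter GTAAACA begins at position -121 from the start and the CACGAG pair at position -85. In the Sesn1 promoter the forkhead core begins at position 23, counted from the start, and lies on the minus strand, so the printed strand reads TGTTTAC.

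Of all 32851 promoters in that table, 3.65% hold GTAAACA, 6.28% hold CAAAACA, 7.15% hold CACGTG and 1, that of Txnip, holds the CACGAG pair. That pair was searched only in the exact spelling that Txnip holds. Its count therefore does not show how rare sites of this kind are, and nothing is read from it. The Pik3ip1 promoter held none of the 4 motifs in this window, and neither did those of Foxo1, Foxo3 or the second Sesn1 start. The Irs2 promoter held CAAAACA and CACGTG and that of Mxd4 held CACGTG. A match describes letters in 300 bases and does not show that a factor binds there.

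The members were then set beside the rest of their pathway, as 171 further genes in 7 lists, each gene represented by its brightest tested probe. The lists were chosen with earlier results of these data known, so nothing is read from their counts. Of the 154 tested, 7 rose, 0 fell and 147 did not pass over all tested probes (limma, adjusted p below 0.05). That is 4.55% against 1.75% of all tested probes. These are unlike sets, since the second share also covers unnamed probes and the dimmer probes of named genes. In the fit with 1 probe per gene, 15 rose and 0 fell, or 9.74% against 7.41% of genes. With the replicate block 0 passed over all tested probes (34 had an unadjusted limma p below 0.05), and 9 passed with 1 probe per gene. The count over all tested probes was 3 without knockdown replicate 1 and 0 without any other single array, with 25 to 38 at an unadjusted limma p below 0.05.

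Most of the genes that rose over all tested probes came from the list of other FoxO-induced genes, which was also the longest list. Of 35 tested in that list of 44, 5 rose, 0 fell and 30 did not pass, or 14.3% against 1.75% of all tested probes, again unlike sets. A log2 fold change above 0 was found in 28, and the share of all genes above 0 was not computed. The median was 0.31, or 0.24 without knockdown replicate 1, beside a median of -0.007 over all tested probes. Because this list was chosen with earlier results known, nothing is read from its counts. Selenop, which encodes the selenium transport protein of plasma, had 3.08, 2.58 and 2.81 in knockdown arrays and 1.50, 1.05 and 1.15 in control arrays, and rose 3.01-fold (log2 fold change 1.59 ± 0.19, SE, n = 3 each; limma adjusted p = 0.0298). Hbp1, a transcriptional repressor that slows entry into S phase, had 2.85, 2.17 and 2.45 in knockdown arrays and 1.1, 1.09 and 1.27 in control arrays, and rose 2.53-fold (limma adjusted p = 0.0378). In both genes all knockdown arrays lay above all control arrays, with knockdown replicate 1 the highest.

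Pink1, the kinase that marks damaged mitochondria for removal, rose 2.13-fold (limma adjusted p = 0.0470, or 0.0534 with 1 probe per gene and the block). Gadd45b, a stress-response gene, rose 1.88-fold (limma adjusted p = 0.0378), and Tob1, an antiproliferative gene, rose 1.73-fold (limma adjusted p = 0.0434). With 1 probe per gene 9 of the list rose, or 25.7% against 7.41% of all genes. The further 4 were Bbc3, a pro-apoptotic gene, Bnip3l, a mitophagy gene, the antiproliferative gene Btg1, and Fbxo25, a relative of Fbxo32 (log2 fold changes 1.01, 0.63, 0.69 and 0.68). The dimmer tested probe of Btg1 was at 0.07, so its probes differed, and that of Bnip3l was at 0.74. With the block in that fit 5 of the list passed, where 3.94% of all genes passed. Bbc3 was among the 5, while Bnip3l, Btg1 and Fbxo25 had limma adjusted p-values of 0.0779, 0.0750 and 0.0689. Cdkn1b and the other sestrins passed in neither fit. Cdkn1b, the inhibitor of cyclin-dependent kinases also called p27, had a log2 fold change of 0.10 with a 95% interval from -0.23 to 0.43. Sesn3 was at 0.49 ± 0.16 (SE; limma adjusted p = 0.164) and Sesn2 at -0.26 ± 0.25 (SE; limma adjusted p = 0.640), so the 3 sestrin genes did not share one value. Among the 9 untested members were Pck1, G6pc, Igfbp1 and Trim63, targets known from liver or muscle.

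The insulin and IGF signalling list and the kinases held 1 rise over all tested probes. Of 19 tested genes for ligands, receptors and adaptors limma called 0 over all tested probes (4 at an unadjusted p below 0.05), with a median of 0.17 that was -0.07 without knockdown replicate 1. With 1 probe per gene 1 rose, Igfbp6, which encodes an IGF-binding protein (1.70-fold; limma adjusted p = 0.0385, or 0.0400 with the block). Igf1r, the IGF1 receptor gene, had 2.15, 2.47 and 2.31 in knockdown arrays and 2.88, 2.76 and 2.83 in control arrays. These values did not overlap, and the log2 fold change of -0.51 ± 0.13 (SE, n = 3 each) did not pass (limma adjusted p = 0.103). Irs1, the other main IRS adaptor gene, was at -0.26 ± 0.15 (SE; limma adjusted p = 0.404).

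Of 18 tested PI3K and Akt kinase genes, 1 rose, 0 fell and the median was 0.04. The rise was Pik3r3, a regulatory subunit of PI3K, with 1.92, 1.23 and 1.53 in knockdown arrays and 0.37, 0.32 and 0.19 in control arrays, or 2.41-fold (log2 fold change 1.27 ± 0.19, SE, n = 3 each; limma adjusted p = 0.0400). The catalytic subunit gene Pik3ca was at 0.15 ± 0.18 and the regulatory subunit gene Pik3r1 at -0.28 ± 0.34 (log2 fold change ± SE). Akt1 and Akt2 were at -0.22 and -0.05, with 95% intervals that together ran from -0.55 to 0.25.

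Of 14 brakes on PI3K and Akt limma called 0 over all tested probes (4 at an unadjusted p below 0.05), and the median was 0.01. With 1 probe per gene 1 rose, Inpp4b, a lipid phosphatase gene (1.6-fold; limma adjusted p = 0.0446, or 0.0827 with the block). The list of mTORC1 and its regulators also held Rictor, Mapkap1, Prr5 and Prr5l, genes of the related complex mTORC2. Of its 29 genes, 1 rose and 0 fell, with a median of 0.09. It was Rragd, a Rag GTPase that places mTORC1 on the lysosome, with -0.19, -0.88 and -0.69 in knockdown arrays and -2.78, -2.17 and -2.11 in control arrays. Rragd rose 3.40-fold (log2 fold change 1.77 ± 0.25, SE, n = 3 each; limma adjusted p = 0.0378), and its second probe gave a log2 fold change of 1.83. With 1 probe per gene 3 rose, Rragd and the mTORC1 inhibitor gene Ddit4 (2.30-fold; limma adjusted p = 0.0268, or 0.0275 with the block) and its relative Ddit4l (1.57-fold; limma adjusted p = 0.0312, or 0.0750 with the block). Mtor itself was at -0.24 ± 0.22 (SE; limma adjusted p = 0.619).

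Of 24 genes of the other FoxO factors and their regulators limma called 0, both over all tested probes and with 1 probe per gene (1 and 1 at an unadjusted p below 0.05), and their median was -0.02. Foxo4 was well above background on 3 of 6 arrays, at 0.39 ± 0.32 (log2 fold change ± SE; limma adjusted p = 0.580). The list of the MAX network and MondoA partners also held Arrdc2, Arrdc3 and Arrdc4, relatives of Txnip. Of its 15 genes limma likewise called 0 in both fits (6 and 7 at an unadjusted p below 0.05). Their median was 0.08, or 0.29 without knockdown replicate 1. Arrdc2, Arrdc3 and Arrdc4 were at log2 fold changes of 0.57, 0.64 and 0.47. Each was higher in the knockdown without overlap, as were 14.5% of all tested probes. In the first of these lists 11 and in the second 8 genes had a log2 fold change above 0.

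**Figure D4:**
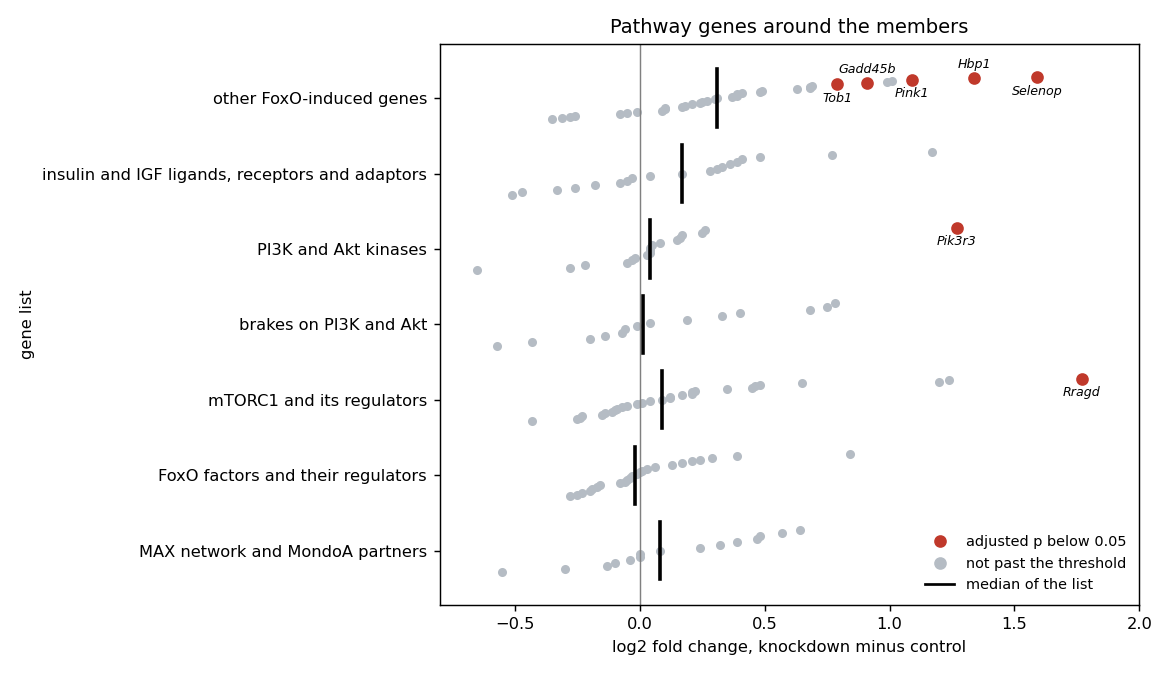
Log2 fold change, knockdown minus control (horizontal axis), of the tested genes of the 7 lists (rows, vertical spread within a row only separates points). Larger red points passed limma's adjusted p of 0.05 over all tested probes, grey points did not, and black lines are medians. Selenop, Hbp1, Pink1, Gadd45b, Tob1, Pik3r3 and Rragd rose, and list medians lie between -0.02 and 0.31.

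The gene profiles most like a member were ranked by Pearson's correlation over the 6 arrays, among the brightest probes of 14141 other genes. For Pik3ip1 these were Tspan17 (0.9986), Gstm2 (0.9964) and Agbl3 (0.9939), and for Foxo1 they were Sfxn3 (0.9967), Maip1 (0.9921) and Shoc2 (0.9885). With 6 arrays and this many genes such values are a description only, and for Pik3ip1 they carry the split between the groups.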

How the data were processed

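RNA of 3 knockdown and 3 control samples was hybridised to 1-colour arrays. Spot brightness is a linear intensity in the scanner files, background-subtracted by Agilent Feature Extraction 11.0.1.1, per the file headers. The authors' deposited value table holds log2 values; every probe differed from the log2 processed signal by 1 constant per array within 0.01, genes were not centred, the column medians ran from -4.47 to -4.22, and the method behind it is not given in the sources used here. Groups and pairs came from the sample titles, in which 1 knockdown and 1 control sample share each date. The titles do not say what was done on that date. Deviations from the group means correlated at -0.17, 0.60 and -0.34 within pairs 1, 2 and 3. Separate cultures are not stated in the labels, so p-values rest on the spread between these arrays, which may be technical.

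Outlier spots were left out, spots of a probe averaged as log2, and the 75th percentile of each array subtracted. Probes were named by RefSeq accession in a GRCm38.p6 table (32986 of 56593); 12 of 56605 probes were left out. The 31804 probes that were well above background on 3 or more arrays were tested with limma 3.58.1 in R 4.3.3, two-sided, without a block, with Benjamini-Hochberg adjustment and a threshold of 0.05. The fit was run on simulated arrays first. Named were all members, Ggct, 13 core pathway genes (2 of them not reported here), up to 6 genes per list past the threshold and the 3 closest profiles to Pik3ip1 and Foxo1; Nes, Sox2, Vim, Olig2 and the microglial genes are markers, and Pck1, G6pc, Igfbp1, Trim63 and the genes that passed only with 1 probe per gene were named after their values were seen. The values of Arrdc2, Arrdc3 and Arrdc4 were added after they were seen. The members and lists were chosen with earlier results of these data known. Python 3.11.15, pandas 2.3.3 and matplotlib 3.10.9 were used.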

Additional observations from a re-analysis of the deposited data

How the results depend on the processing

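Over all tested probes 556 passed, of which 7 were member probes, and 7 pathway genes passed. With the replicate block, limma called 0 probes, 0 member probes and 0 pathway genes (5572, 8 and 34 at an unadjusted p below 0.05). Without a filter, 58 probes, 2 member probes and 0 pathway genes passed (6555, 9 and 31 at an unadjusted p below 0.05), over 56593 probes. With 1 probe per gene, 1048 genes and 15 pathway genes passed, over 14151 genes, and with the block added to that fit, an alternative chosen after seeing the data, 558 passed. With single arrays left out the counts ran from 0 to 192 probes, 0 to 4 member probes and 0 to 3 pathway genes, on fewer samples. Quantile normalization, a 75th percentile taken over detected probes alone, normexp, a filter of all 6 arrays and the deposited table kept all 3 counts within 1.5 times. The cause of the lower counts with the block was not tested.

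Of 215 member fold changes recomputed over these alternatives, 211 moved by less than the SD between replicates, 4 moved further, and 0 of the called ones changed sign. The 4 were all with normexp, on median spot signals in place of the planned mean signals, at log2 fold changes of 1.93 for Pik3ip1, 1.31 for Mxd4, 1.19 for the second Txnip probe and 0.49 for the second Trp53inp1 probe; its offset of 50 shrinks folds of dim probes by construction. The probes of Foxo3 and the second probes of Pik3ip1 and Insr lie too near background to carry a level.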
